A study of Mus musculus with 2 samples.

Results

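The genes described here make and use glutathione and thioredoxin, the small thiol molecule and the small thiol protein with which cells remove peroxides and other reactive compounds. They were chosen by symbol as 39 genes for the regulators, the synthesis and reduction enzymes, the thioredoxin system, the peroxidases, the superoxide dismutases with catalase, and the glutathione transferases. Of the 39 genes 36 had at least 1 probe set annotated to that gene alone, out of 18193 genes named on the array, and all 36 were above the intensity floor on both arrays. They were read by 72 probe sets, of which 63 passed the floor on both arrays, 1 in the vector control only and 8 on neither. The other 3 were peroxiredoxin genes. The 5 probe sets of Prdx1 are shared with Gm21399 in the annotation and were set aside, and no probe set was annotated to Prdx5 or Prdx6, so these genes are not analysed here.

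The lungs were those of C57BL/6 mice that were 6 to 8 weeks of age at injection, taken 19 days after 500000 Lewis lung carcinoma (LLC) cells in 200 µL had been given by tail vein. These cells, from a carcinoma of the mouse lung, form tumours in the lung by this route. In 1 group the injected LLC cells overexpressed TDAG8, the proton-sensing receptor encoded by Gpr65, and in the other the LLC cells were transfected with vector, so both groups carried LLC tumour cells and neither was a tumour-free lung. The lungs of 10 mice per group were pooled into 1 RNA and 1 Affymetrix array, so there was no replicate, no test and no error for any difference, and every value describes these 2 pools.

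Nrf2, encoded by Nfe2l2, is a transcription factor that the adaptor Keap1 holds at a low level until oxidants or electrophiles modify Keap1. It then binds antioxidant response elements and raises genes for glutathione synthesis, the thioredoxin system, heme oxygenase and many glutathione transferases. In the lung, club cells and alveolar epithelium are rich in glutathione transferases, which couple glutathione to reactive compounds, while peroxidases and peroxiredoxins work in most cell types.

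Intensities are given as deposited, in arbitrary units on a linear scale. Differences are log2 ratios with TDAG8 on top and the vector control below, after centring, which subtracted the median ratio of -0.06 over all genes that passed the floor on both arrays. A log2 ratio of 1 is a 2-fold difference. A gene read more than once was represented by its brightest probe set, by mean log2 intensity. The floor was the median of each array, 24.3 in the TDAG8 array and 26.3 in the vector control. Over 11949 genes above the floor on at least 1 array the ratios had quartiles of -0.33 and 0.35, and over the 11044 above it on both arrays the SD was 0.55. In 5 equal classes by level that SD was 0.56 in the dimmest and 0.50 in the brightest, which held 22 of the 36 antioxidant genes. Gpr65 itself had an intensity of 73.9 in lungs with TDAG8-overexpressing cells and 32.3 in vector control lungs, from 1 probe set. No source used here says whether that probe set reads the transfected sequence, so its level is no firm check of the labels.

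The promoters of 4 of these genes are shown first, because Nrf2 is known to act through short elements of the kind TGACNNNGC. The capitals mark each match to TGACNNNGC or to the related TGAGNNNGC, searched on both strands, in the 300 bases from 250 before to 50 after a RefSeq gene start (GRCm38.p6). Each sequence runs 5′ to 3′ along the gene. Srxn1, Txnrd1 and Gclm were among the higher genes in lungs with TDAG8-overexpressing cells, and Gsta3 was the lowest. All 4 promoters shown are of genes that held a match, so they do not show how common matches were. The windows of Txn1, Txnrd2, Prdx2 and Prdx4, which were also at least 1.5-fold higher, held neither motif. Neither did those of Gstm1, Gstm2, Gpx2 and Gpx3, which were at least 1.5-fold lower.
Srxn1, chr2:152105274-152105573, plus strand: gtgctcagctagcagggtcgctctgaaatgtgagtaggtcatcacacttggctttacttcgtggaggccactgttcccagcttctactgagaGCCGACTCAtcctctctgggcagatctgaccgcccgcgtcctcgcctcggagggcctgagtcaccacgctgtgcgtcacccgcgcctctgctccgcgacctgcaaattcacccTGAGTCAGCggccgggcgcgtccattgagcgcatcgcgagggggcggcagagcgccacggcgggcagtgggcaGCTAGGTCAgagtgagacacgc
Txnrd1, chr10:82858956-82859255, plus strand: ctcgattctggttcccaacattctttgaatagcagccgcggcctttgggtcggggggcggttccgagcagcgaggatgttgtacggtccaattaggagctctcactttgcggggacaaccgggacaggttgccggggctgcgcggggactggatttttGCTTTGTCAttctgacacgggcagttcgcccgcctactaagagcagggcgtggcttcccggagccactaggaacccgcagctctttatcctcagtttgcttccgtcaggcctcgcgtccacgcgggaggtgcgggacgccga
Gclm, chr3:122245307-122245606, plus strand: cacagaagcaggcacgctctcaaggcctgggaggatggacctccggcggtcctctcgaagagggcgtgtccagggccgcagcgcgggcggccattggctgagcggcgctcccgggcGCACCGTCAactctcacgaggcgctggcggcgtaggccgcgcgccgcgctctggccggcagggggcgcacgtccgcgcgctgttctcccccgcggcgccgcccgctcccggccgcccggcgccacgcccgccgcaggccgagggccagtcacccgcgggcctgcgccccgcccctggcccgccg
Gsta3, chr1:21240335-21240634, plus strand: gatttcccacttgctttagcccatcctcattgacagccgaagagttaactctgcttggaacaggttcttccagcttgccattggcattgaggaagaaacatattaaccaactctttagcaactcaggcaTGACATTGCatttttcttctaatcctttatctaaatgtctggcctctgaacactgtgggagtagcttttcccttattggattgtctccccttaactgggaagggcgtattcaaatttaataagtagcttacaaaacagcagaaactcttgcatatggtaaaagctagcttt

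The Srxn1 window held 3 matches. They were gccgactca from 158 to 150 bases before the start, tgagtcagc from 45 to 37 bases before it, and gctaggtca just after it. The second of these contains TGAGTCA, which is also a binding motif of AP-1, so the letters do not tell the factors apart. Txnrd1 has 3 windows in the table, and only the one shown held a match, gctttgtca, from 92 to 84 bases before that start. The Gclm window held gcaccgtca from 134 to 126 bases before the start. The Gsta3 window, of a gene that was lower, held tgacattgc from 121 to 113 bases before the start. A window was found for 31 of the 36 genes. Hmox1, Gsr, Gclc, Gsta4 and Sod3 had none and were not searched. Of the 31, 8 held TGACNNNGC: Nfe2l2, Gclm, Txnrd1, Srxn1, Sod1, Gsta3, Gstm5 and Mgst1. Over all 27025 genes in the table the share with TGACNNNGC was 14% and that with TGAGNNNGC 19.8%, or 12.4% and 17.6% of single windows. TGAGNNNGC was held by 4 of the 31, which were Srxn1, Gstm5, Gstp1 and Gstt1. At least 1 of the 2 motifs was held by 10 of the 31, beside 30.8% of all genes. By group, 3 of 10 transferases with a window and 2 of 13 synthesis and peroxide genes with a window held TGACNNNGC. The matches are letters in a window near 1 annotated start, and binding was not measured.

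**Figure D1:**
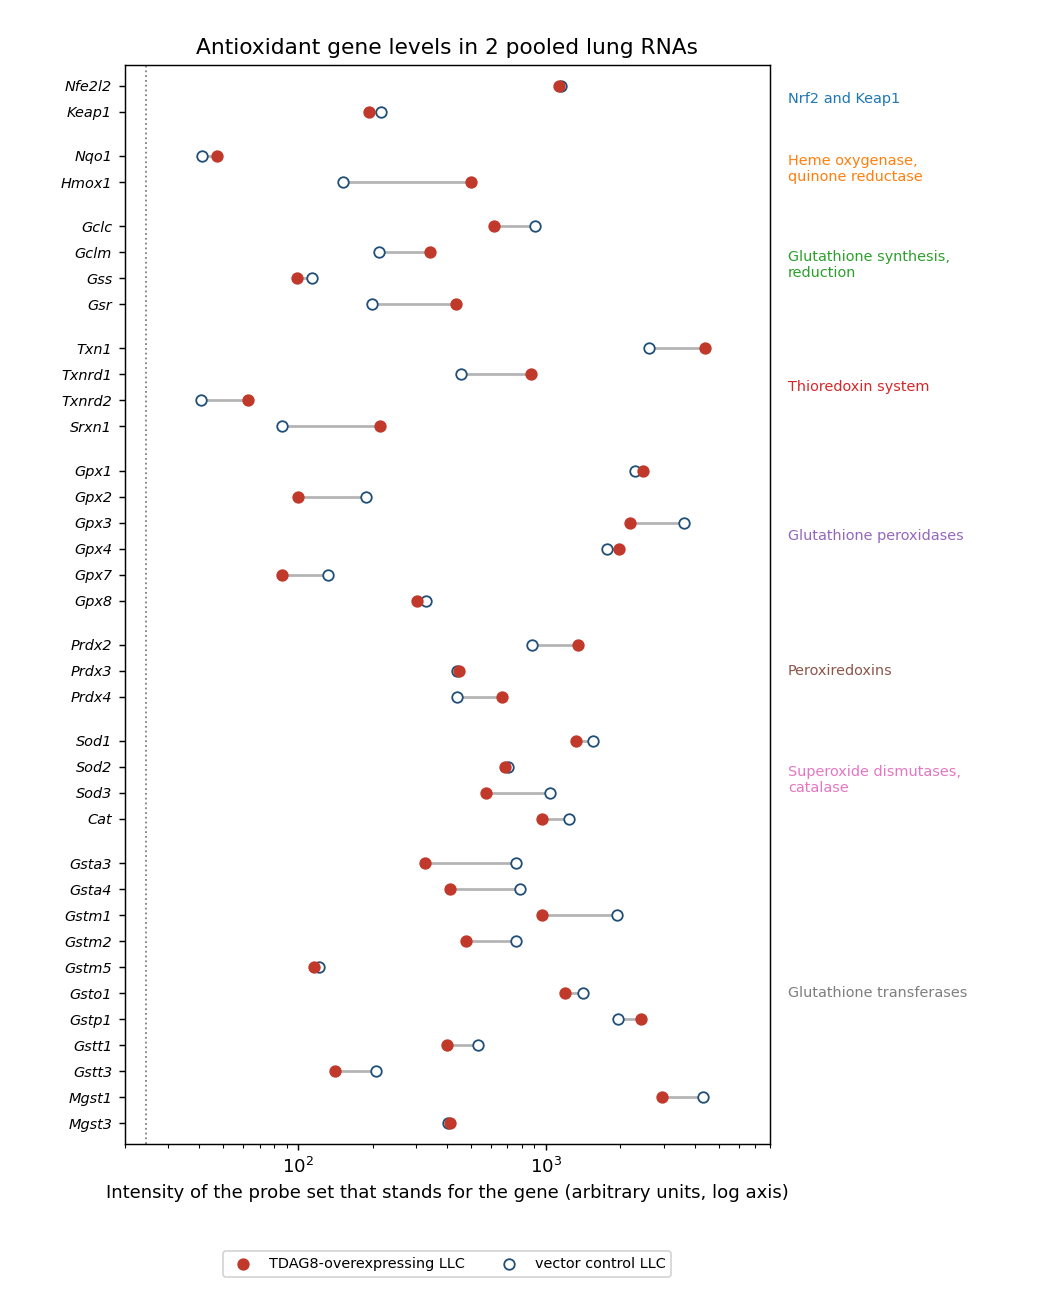
Intensity of the probe set that stands for each of the 36 antioxidant genes (log axis, arbitrary units), filled in lungs with TDAG8-overexpressing LLC cells and open in lungs with vector control LLC cells, 1 pooled array each. The dotted line is the floor of the TDAG8 array, 24.3. Hmox1, Gsr and Srxn1 lay to the right in the TDAG8 pool and Gsta3, Gsta4 and Gstm1 to the left, while Nfe2l2 had nearly the same intensity in both.

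The antioxidant genes did not differ in 1 direction: the thioredoxin system, glutathione reductase and heme oxygenase were higher in lungs with TDAG8-overexpressing cells, and 4 of the 11 glutathione transferases, extracellular superoxide dismutase and extracellular glutathione peroxidase were at least 1.5-fold lower. Of the 36 genes 3 were at least 2-fold higher, or 8.33%, beside 5.41% of all 11949 measured genes. These were Hmox1, Srxn1 and Gsr. Only Gsta3 was at least 2-fold lower, 1 of 36 or 2.78%, beside 1.19% of all measured genes. At 1.5-fold 9 genes were higher, 25% beside 14.4% of all genes, and 7 were lower, 19.4% beside 12.1%. The 9 were Hmox1, Srxn1, Gsr, Txnrd1, Txn1, Gclm, Txnrd2, Prdx2 and Prdx4, and the 7 were Gsta3, Gstm1, Gsta4, Gpx2, Sod3, Gpx3 and Gstm2. The median log2 ratio of the 36 was -0.04, beside a median over all measured genes that the centring had put near 0. Of the 36, 17 were above 0 and 19 below, beside 49.9% and 50.1% of all measured genes. These shares rest on few genes each and carry no test. With the mean over the probe sets of each gene, Gclm, Txnrd2 and Prdx4 were no longer past 1.5-fold, and Sod3 at -1.05 took the place of Gsta3 at -0.90 as the gene at least 2-fold lower.

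**Figure D2:**
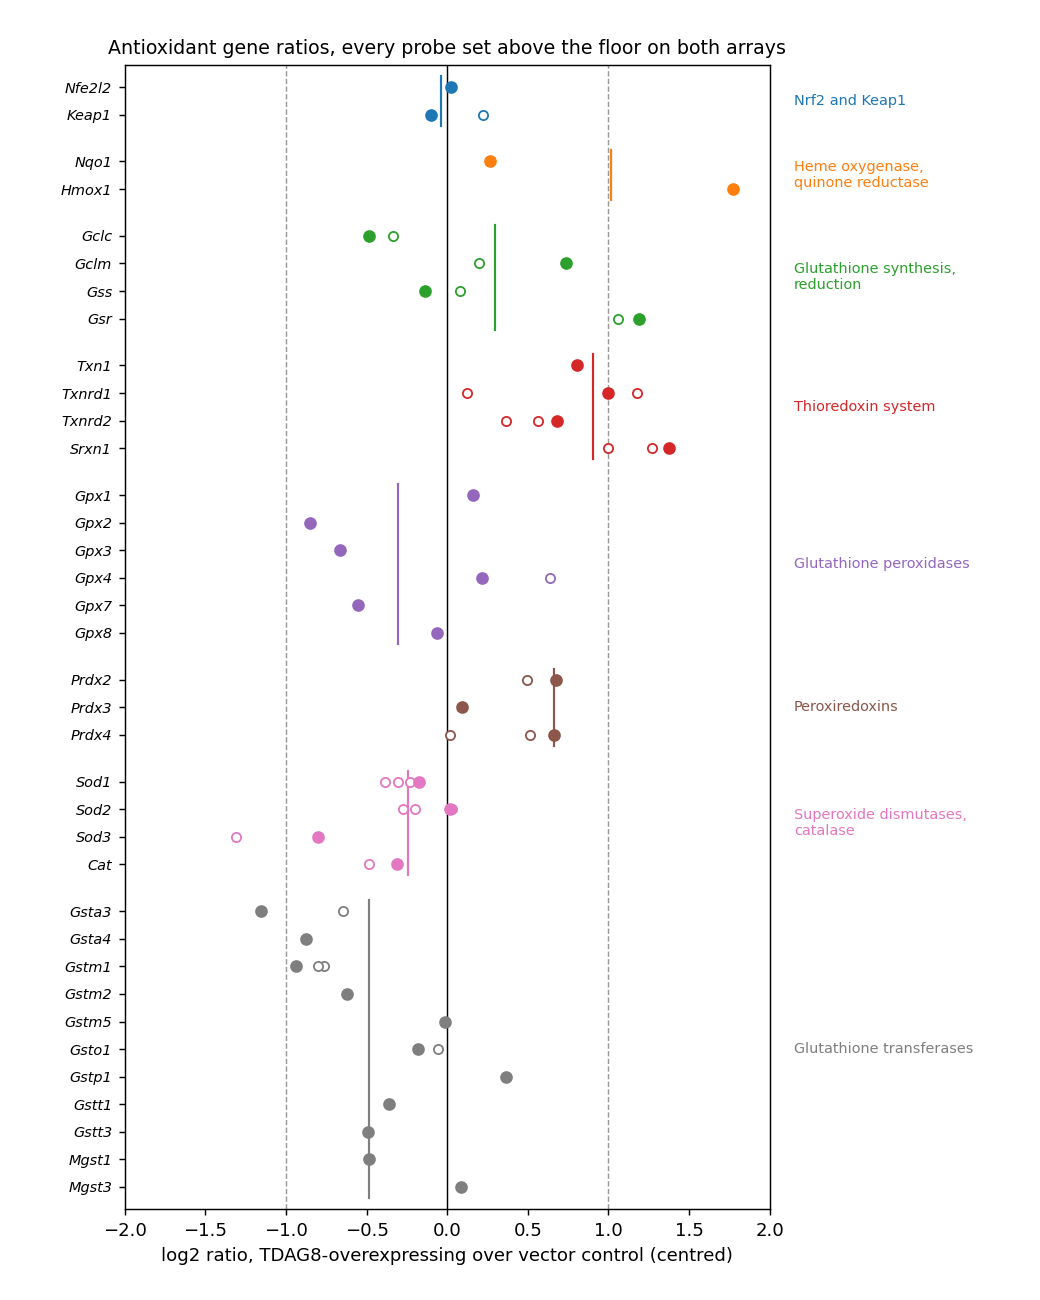
Centred log2 ratio of TDAG8 over vector control for every probe set that passed the floor on both arrays, by gene and role. Filled points are the probe sets that stand for the genes, open points are further probe sets, vertical bars are the medians of the role groups, and dashed lines mark 2-fold. The 4 thioredoxin genes lie between 0.68 and 1.37, and the 11 glutathione transferases between -1.16 and 0.36.

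The regulators themselves differed little. Nfe2l2 had an intensity of 1126 in lungs with TDAG8-overexpressing cells and 1153 in vector control lungs, a log2 ratio of 0.02. Keap1 had 193 in the TDAG8 pool and 215 in the vector control, a log2 ratio of -0.10, and a second probe set gave 0.22. Nrf2 is controlled mainly by protein stability, so its RNA level is not a measure of its activity. Of its direct targets, Hmox1, the enzyme that opens heme into biliverdin, iron and carbon monoxide, had 499.9 in the TDAG8 pool and 153 in the vector control. Its log2 ratio of 1.77, or 3.41-fold, was the highest among the antioxidant genes, and 1.16% of all measured genes had a ratio at least as high. Nqo1, the quinone reductase often used as a readout of Nrf2, was dim in both pools, with 47.0 in the TDAG8 pool and 40.8 in the vector control. Its log2 ratio was 0.26, and 30% of measured genes had one at least as high. Hmox1 and Nqo1 thus differed from each other by 1.51 in log2 ratio. Hmox1 is also a gene of macrophages that take up heme, and the monocyte and macrophage markers were higher as well: 11 of 12 measured markers were above 0, with a median of 1.24 and a summed intensity of 6707 in the TDAG8 pool and 3782 in the vector control. Markers of alveolar macrophages, the resident macrophages of the airspace, ran mostly the other way. Of these, 9 were measured and 7 lay below 0, with a median of -0.69 and a summed intensity of 4014 in the TDAG8 pool and 6210 in the vector control. None of the markers of either list was at 0 on either array, and the part of these cells in the ratio of Hmox1 was not tested. In RNA of whole lungs, a change in the number of cells of a type and a change in RNA per cell cannot be told apart.

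Glutathione synthesis and reduction split by enzyme. Gsr, the reductase that returns oxidised glutathione to its reduced form, had 436 in the TDAG8 pool and 199 in the vector control, 2.28-fold higher, and its second probe set gave a log2 ratio of 1.06 beside 1.19. Gclm, the modifier subunit of glutamate-cysteine ligase, had 340 in the TDAG8 pool and 213 in the vector control, 1.67-fold higher. A dimmer probe set of Gclm gave a log2 ratio of 0.20, so its size depends on the probe set. Gclc, the catalytic subunit of the same ligase and the rate-limiting enzyme of glutathione synthesis, ran the other way, with 619 in the TDAG8 pool and 903 in the vector control. Its log2 ratio was -0.48, its second probe set gave -0.34, and Gclm stood 1.22 above Gclc in log2 ratio. Gss, which completes glutathione, had 99.3 in the TDAG8 pool and 114 in the vector control, and its probe sets gave -0.14 and 0.08.

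All 4 genes of the thioredoxin system were at least 1.5-fold higher in lungs with TDAG8-overexpressing cells, beside 14.4% of all measured genes. Their median log2 ratio was 0.90. Txn1, the cytosolic thioredoxin and the brightest of these genes, had 4381 in the TDAG8 pool and 2610 in the vector control, 1.75-fold higher. Txnrd1, the selenoenzyme that keeps cytosolic thioredoxin reduced, had 869 in the TDAG8 pool and 453 in the vector control, which at 1.997-fold higher lay just short of the 2-fold rule. Its other probe sets gave 1.18 and, close to the floor, 0.12. Txnrd2, the mitochondrial counterpart, was dim, with 62.6 in the TDAG8 pool and 40.7 in the vector control, and its probe sets gave between 0.37 and 0.68. With the floor at percentile 65 the vector control value of Txnrd2 lay below it and the lower bound was 0.051, and with an offset its ratio was 0.44, so that its 1.5-fold call depends on how dim values are treated. Srxn1, sulfiredoxin, which restores overoxidised peroxiredoxins, had 214 in the TDAG8 pool and 85.9 in the vector control, 2.59-fold higher. All 3 of its probe sets above the floor gave ratios between 0.995 and 1.37. All 11 measured markers of dividing cells were at least 2-fold higher in the same array, beside 5.41% of all measured genes. Their median was 2.44. The 12 such markers with a probe set summed to 5529 in the TDAG8 pool and 1133 in the vector control. None was listed at 0, and their part in the thioredoxin ratios was not tested.

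Among the peroxiredoxins, which remove peroxides with thioredoxin, Prdx2 had 1352 in the TDAG8 pool and 882 in the vector control, 1.60-fold higher, with 0.49 from its second probe set. Prdx2 is abundant in red cells, of whose 10 listed markers 2 were measured, both below 0 at a median of -0.60. The 6 red cell markers with a probe set summed to 430 in the TDAG8 pool and 765 in the vector control, none was listed at 0, and their part in the ratio of Prdx2 was not tested. Prdx4, the peroxiredoxin of the endoplasmic reticulum, had 667 in the TDAG8 pool and 438 in the vector control, 1.58-fold higher, while dimmer probe sets gave 0.52 and 0.02. Prdx3, the mitochondrial form, had 447 in the TDAG8 pool and 436 in the vector control, a log2 ratio of 0.09.

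The glutathione peroxidases were uneven. Gpx1, the main cytosolic form, had 2458 in the TDAG8 pool and 2296 in the vector control, and Gpx4, which reduces lipid peroxides in membranes, had 1968 in the TDAG8 pool and 1767 in the vector control. Their log2 ratios were 0.16 and 0.21, and a second probe set of Gpx4 gave 0.64. Gpx3, the secreted plasma form, had 2194 in the TDAG8 pool and 3625 in the vector control, 1.59-fold lower. Gpx2, a form of epithelia, had 100.4 in the TDAG8 pool and 189 in the vector control, 1.80-fold lower, and 3.16% of all measured genes had a ratio at least as low. Gpx7 and Gpx8, which work in the endoplasmic reticulum and have cysteine in place of selenocysteine, had log2 ratios of -0.56 and -0.06. The 6 peroxidases had a median of -0.31. Of these, 4 were below 0 and 2 at least 1.5-fold lower, beside 50.1% and 12.1% of all measured genes.

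Of the superoxide dismutases, which turn superoxide into hydrogen peroxide, the extracellular form stood apart from the other two in size. Sod3 had 574 in the TDAG8 pool and 1040 in the vector control, 1.74-fold lower, and a second probe set gave a log2 ratio of -1.31. The cytosolic Sod1 had 1320 in the TDAG8 pool and 1555 in the vector control, and its 4 probe sets gave between -0.39 and -0.18. The mitochondrial Sod2 had 682 in the TDAG8 pool and 701 in the vector control, with ratios from -0.27 to 0.03 over 4 probe sets. Catalase, encoded by Cat, had 961 in the TDAG8 pool and 1240 in the vector control, and its probe sets gave -0.31 and -0.49. Sod3 is made in the lung by smooth muscle and alveolar type 2 cells among others. All 7 measured smooth muscle markers were below 0 with a median of -0.67, and the 8 with a probe set summed to 2473 in the TDAG8 pool and 3701 in the vector control. None was listed at 0. Their part in the ratio of Sod3 was not tested.

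The glutathione transferases were the role group with the lowest median, -0.49, except without probe sets of possibly shared sequence. In that setting, which left out Gpx4, Gstp1 and Mgst1, the glutathione peroxidases were at -0.53 and the transferases at -0.47. Of the 11 transferases 9 lay below 0, 81.8% beside 50.1% of all measured genes. Gsta3, an alpha class enzyme, had 326 in the TDAG8 pool and 757 in the vector control, 2.23-fold lower. Only 0.351% of measured genes had a ratio at least as low, and its dimmer probe set gave -0.65. Gsta4, which handles the lipid peroxidation product 4-hydroxynonenal, had 411 in the TDAG8 pool and 784 in the vector control, 1.83-fold lower. Gstm1, a mu class enzyme, had 967 in the TDAG8 pool and 1931 in the vector control, 1.92-fold lower, and further probe sets gave -0.80 and -0.76. All 3 genes were lower in the TDAG8 pool on each probe set that passed the floor.

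The mu class genes Gstm1, Gstm2 and Gstm5 all lie on chromosome 3 and differed among themselves. Gstm2 had 475 in the TDAG8 pool and 761 in the vector control, 1.54-fold lower, while Gstm5 had 116 in the TDAG8 pool and 122 in the vector control, a log2 ratio of -0.01. The ratio of Gstm1 was 0.93 below that of Gstm5. Mu class genes are alike in sequence, and the probe set that stands for Gstm1 is of a type that can share sequence with other genes. A Gstm1 probe set without that mark had 931 in the TDAG8 pool and 1691 in the vector control. The theta class genes Gstt1 and Gstt3, together on chromosome 10, had log2 ratios of -0.36 and -0.49. Gstt1 had 399.8 in the TDAG8 pool and 535 in the vector control, and Gstt3 had 141 in the TDAG8 pool and 206 in the vector control.

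The remaining transferases ranged from lower to higher. Mgst1, a membrane-bound transferase and the brightest of the 11, had 2946 in the TDAG8 pool and 4296 in the vector control, 1.40-fold lower. Mgst3 had 411 in the TDAG8 pool and 404 in the vector control. Gsto1, of the omega class, had 1194 in the TDAG8 pool and 1410 in the vector control, and its probe sets gave -0.18 and -0.06. Gstp1, the pi class enzyme often abundant in tumours, had 2412 in the TDAG8 pool and 1954 in the vector control, a log2 ratio of 0.36 and the highest of the 11. It was read by 1 probe set, and its near copy Gstp2 had none of its own, so the signal may hold both.

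Markers of club and alveolar type 2 cells were lower beside the transferases. All 11 measured club cell markers were below 0 with a median of -0.67, and the 12 with a probe set summed to 33032 in the TDAG8 pool and 46299 in the vector control. All 9 measured alveolar type 2 markers were below 0 with a median of -0.48, and their sum was 25837 in the TDAG8 pool and 35203 in the vector control. Markers of cells less known for transferases were lower too, some by more than the club cell markers. All measured alveolar type 1, ciliated and endothelial markers were below 0, with medians of -0.54, -0.80 and -0.69. Fibroblast markers were mixed, with 7 of 10 below 0 and a median of -0.32. None of the markers of these lists was at 0 on either array. The brightest club cell marker, Scgb1a1, had a log2 ratio of -0.15, above those of 8 of the 11 transferases. That was also the highest ratio of the 11 measured club cell markers, whose lowest was -1.18. The part of these markers in the transferase ratios was not tested.

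**Figure D3:**
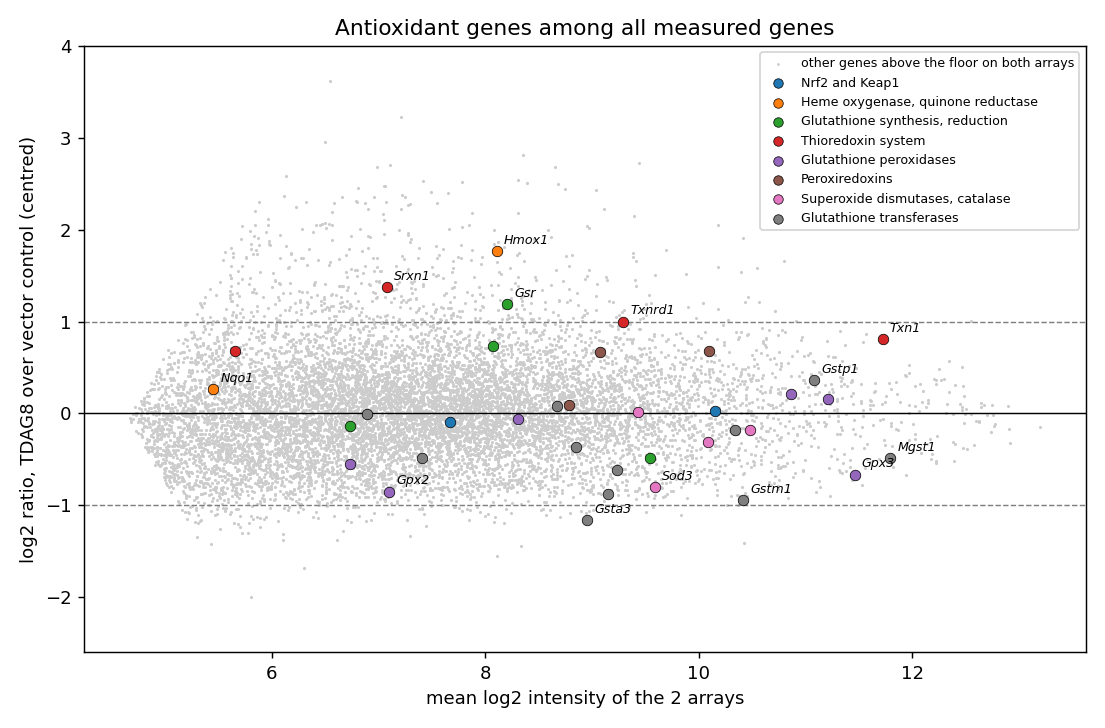
Centred log2 ratio of TDAG8 over vector control against mean log2 intensity for the 11044 genes that passed the floor on both arrays (grey), with the 36 antioxidant genes coloured by role. Dashed lines mark 2-fold. Most of the antioxidant genes are bright, with 22 in the brightest of 5 classes by level, and Gsta3 at -1.16 lies at the lower edge of the cloud while Hmox1 at 1.77 lies within its upper part.

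Set against each other, the 11 glutathione transferases had a median log2 ratio of -0.49 and the 15 measured synthesis and peroxide enzymes 0.09, a difference of -0.58. The second group held Gclc, Gclm, Gss, Gsr, Srxn1, Cat, the 6 glutathione peroxidases and the 3 measured peroxiredoxins. The groups overlapped: 10 of 11 transferases lay below the median of the synthesis and peroxide enzymes, and 12 of those 15 lay above the median of the transferases. None of the transferases and 5 of the 15 synthesis and peroxide enzymes, 33.3%, were at least 1.5-fold higher, beside 14.4% of all measured genes. At least 1.5-fold lower were 4 of 11 transferases, 36.4%, and 2 of 15 of the others, 13.3%. The share of all measured genes was 12.1%, close to that of the second group. In the second group 7 of the 15 genes were below 0, 46.7% beside 50.1% of all measured genes. Among them were Gpx2, Gpx3, Gpx7 and Gclc. The difference ranged from -0.58 to -0.43 over the alternative settings. It stayed at -0.58 without centring, at both other floors and with the mean over probe sets. A shift common to all genes cancels in such a difference, so leaving out the centring could not change it. No test was possible with 1 array per group.

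Probe sets of the same gene gave the only repeat measurement within these arrays. Of the 36 genes 18 had more than 1 probe set that passed the floor on both arrays, which gave 27 further probe sets. Of these, 23 had the same sign as the probe set that stood for the gene and 4 had the other, in Keap1, Gss and Sod2, all genes with ratios near 0. The median distance was 0.18 in log2 ratio and the largest 0.87, in Txnrd1. This spread belongs to the probes and not to the mice.

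Further transferases that were not among the 39 genes were mixed. Of 14 listed, 9 were measured, with a median of -0.18, 4 above 0 and 5 below, none at least 2-fold different. The largest differences above the floor on both arrays were those of Gsta2, with 73.4 in the TDAG8 pool and 148 in the vector control, Gstk1, the mitochondrial and peroxisomal form, and Gstcd. Their log2 ratios were -0.96, -0.86 and 0.70. Glutathione precursor and turnover genes had a median of 0.41 over 15 of 21 measured, with 9 above 0 and 6 below. Past 1.5-fold 5 of the 15 were higher and 2 lower, beside 14.4% and 12.1% of all measured genes. Averaging the probe sets of each gene brought the median to 0.19. Ggct, which breaks down gamma-glutamyl amino acids, had a log2 ratio of 0.86 and Oplah, which opens 5-oxoproline, had -0.83. Ggt5, a gamma-glutamyl transferase, was at 1.14, but its second probe set gave -0.66, so its direction is unsettled although it counts among those 5. The cystine transporter gene Slc7a11, a known target of Nrf2 named here after its values were seen, was below the floor on both arrays.

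Other thioredoxin and glutaredoxin genes had a median of 0.12 over 18 of 19 measured. Glrx, which removes glutathione from proteins, had 305 in the TDAG8 pool and 192 in the vector control, 1.65-fold higher on 1 probe set and at 0.86 in log2 ratio on the other. The sestrin genes Sesn2 and Sesn1 were at 1.42 and -0.85, but other probe sets gave values as far as -0.57 and 0.03, so both are uncertain. Other known targets of Nrf2 had a median of 0.08 over 22 of 26 measured, with 12 above 0 and 10 below, and none was 2-fold different. Pgd, which makes NADPH in the pentose phosphate pathway, had 762 in the TDAG8 pool and 466 in the vector control, 1.70-fold higher, with 4 probe sets between 0.48 and 0.92. Akr1b8, an aldo-keto reductase, was 1.73-fold higher, and Aldh3a1, an aldehyde dehydrogenase of epithelia, was 1.97-fold lower. Blvrb and Blvra, chosen after their values were seen because they act on biliverdin, a product of heme oxygenase, were at 0.70 and 0.52. Fth1 and Slc48a1, iron and heme genes of the same list, were not higher, at -0.01 and -0.24. A second probe set of Slc48a1 gave 0.04. The targets thus did not differ as a block, and the higher ones stood beside lower ones of the same list.

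Nrf2 partners and repressors had a median of -0.10 over 10 of 12 measured, with 6 below 0. Bach2, a repressor of B lymphocytes and other cells that binds related elements, had 116 in the TDAG8 pool and 247 in the vector control, 2.04-fold lower. A second probe set gave -0.75, and the 2-fold call was lost with an offset (-0.89), by averaging its probe sets (-0.89) and by leaving out those of possibly shared sequence (-0.73). Nfe2l1, a relative of Nfe2l2, was 1.67-fold lower and Mafk, a small Maf partner, was at -0.47.

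**Figure D4:**
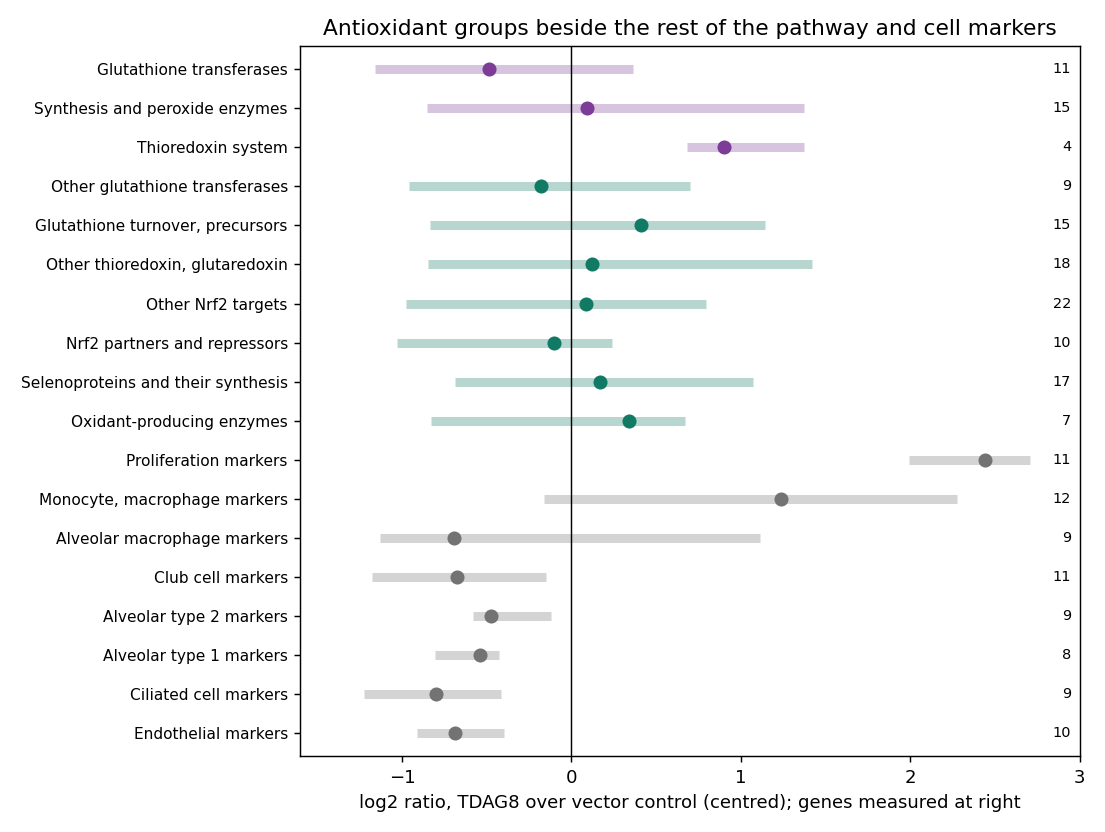
Median (point) and range (bar) of the centred log2 ratio of TDAG8 over vector control for groups of the antioxidant genes (purple), lists of other genes of the same pathways (green) and cell markers (grey), with the number of genes measured at the right. Srxn1 is in both the thioredoxin group and the synthesis and peroxide group. The transferase median of -0.49 lies between the alveolar type 2 and type 1 marker medians of -0.48 and -0.54, and above the club cell one of -0.67. The thioredoxin median of 0.90 lies below the proliferation marker median of 2.44.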

How the data were processed

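Each array measured pooled RNA of 10 whole lungs, 1 array per group, from 2 µg of RNA turned into biotin-labelled cRNA primed at the poly(A) tail, per the labels' protocols. The deposited values are intensity values on a linear scale, 1 per probe set, which the authors had scaled: without the top and bottom 2% of probe sets, either column averages 100. No source used here names the software, and detection calls were not among the values. Precision is limited by having 1 array per group.

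Of 45101 probe sets, 64 controls were set aside. Of the remaining 45037, 34945 had 1 gene symbol, 932 several and 9160 none, and 34741 were matched by gene identifier to RefSeq (GRCm38.p6) for current symbols. Values below the floor (percentile 50 of each array) were raised to it, log2 ratios were taken and centred, and 2-fold and 1.5-fold were the size rules. No test was run. The steps were tested on simulated data. The 8 alternatives changed centring, normalization, floor or the choice of probe sets. Probe sets of possibly shared sequence were taken as those with a letter such as a, s or x before _at in their ID. Such a letter need not mean a sequence shared with another gene. Named genes were all members, Gpr65 and the 3 largest absolute ratios of each other pathway list, with marker lists given by counts and sums. The genes and lists were chosen with earlier results of these data known. Motifs were searched in the RefSeq promoter table with Python 3.11.15 and pandas 2.3.3.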

Additional observations from a re-analysis of the deposited data

How the results depend on the processing

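No paired analysis was possible because each group had 1 array. The 4 counts of antioxidant genes past 2-fold and 1.5-fold stayed within 1.5 times under all 8 alternatives in which they were recomputed. Of 36 genes 32 kept their sign under every alternative that measured them, including all 16 past 1.5-fold, and the 4 others, Nfe2l2, Keap1, Sod2 and Gstm5, had ratios near 0. The median of the transferases stayed between -0.54 and -0.42. Single genes, other pathway genes included, moved by 0.1 or more in 44 cases and changed by less in 400. Group values that moved by 0.1 or more, and the 1 gene that reversed, are grouped here by setting. With probe sets of unshared sequence alone, by their ID suffix, 31 of the 36 genes were measured. Gpx4, Prdx2, Txnrd1, Gstp1 and Mgst1 were left out, so some medians in this setting rest on fewer genes. Ggt5 turned to -0.63 there, and the difference between transferases and synthesis and peroxide enzymes was -0.43. Medians were -0.53 for glutathione peroxidases, 0.40 for peroxiredoxins, 0.26 for glutathione turnover, 0.33 for selenoproteins, -0.021 for other transferases and -0.081 for other Nrf2 targets. The median of other thioredoxin genes turned to -0.0057. With the mean over probe sets, medians were 0.79 for the thioredoxin system, 0.40 for peroxiredoxins, 0.19 for glutathione turnover and -0.29 for Nrf2 partners. With the floor at percentile 65, Hmox1 alone stood for its pair with Nqo1 at 1.75, other transferases were at -0.48 and Nrf2 partners at -0.22. With the floor at percentile 30, other transferases turned to 0.085. With an offset, the Hmox1 and Nqo1 pair was at 0.89 and other transferases at -0.31. Other transferases were at -0.072 after quantile normalization and -0.018 after loess centring. Apart from genes that a setting left out, the cause of these moves was not tested. The count of all genes at least 2-fold lower ranged from 31 with an offset to 345 with the floor at percentile 30, while at least 2-fold higher genes numbered 419 to 876. Single arrays of pooled lungs give no spread between mice, and 2 of the 36 genes, Nqo1 and Txnrd2, had under 100 units on both arrays.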

Other observations

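Genes that build selenoproteins, the class to which the thioredoxin reductases and most glutathione peroxidases belong, were summarised with other selenoproteins. All 17 listed genes were measured, with a median log2 ratio of 0.17, 10 above 0 and 7 below. Selenoh, a nucleolar selenoprotein, had 584 in the TDAG8 pool and 289 in the vector control, 2.10-fold higher. Selenoi, which makes phosphatidylethanolamine in the endoplasmic reticulum, was 1.91-fold higher, with 3 probe sets between 0.56 and 0.93, and was at 0.58, just short of 1.5-fold, without probe sets of possibly shared sequence. Sepsecs, the enzyme that makes the selenocysteine on its transfer RNA, was 1.61-fold lower. Its second probe set gave -0.33, and it was at -0.50 with the mean over probe sets and -0.53 with an offset, both short of 1.5-fold. Selenop, the secreted selenium carrier and brightest of the list, had 4340 in the TDAG8 pool and 5350 in the vector control.

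Enzymes that produce oxidants, listed with their subunits, had a median log2 ratio of 0.34 over 7 of 14 measured genes, with 5 above 0. Those 5, Cybb, Cyba, Ncf1, Ncf4 and Rac2, all belong to the phagocyte NADPH oxidase. The median therefore describes mainly that complex. Cybb, the catalytic subunit of the phagocyte NADPH oxidase, had 923 in the TDAG8 pool and 605 in the vector control, 1.59-fold higher, with 3 probe sets between 0.62 and 0.82. Nox4, a constitutively active oxidase of fibroblasts, vessels and other cells, had 240.0 in the TDAG8 pool and 444 in the vector control, 1.78-fold lower, and its second probe set gave -1.07. Xdh, xanthine dehydrogenase, was at -0.45.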
